A study of Mus musculus with 7 samples.

Results

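The laminins and nidogens are extracellular glycoproteins of basement membranes, the thin matrix sheets under epithelia and around blood vessels, muscle fibres, fat cells and nerves. The members described here were chosen by gene name. They are 5 laminin alpha chain genes (Lama1, Lama2, Lama3, Lama4 and Lama5), 2 beta chain genes (Lamb1 and Lamb3), 1 gamma chain gene (Lamc1) and 2 nidogen genes (Nid1 and Nid2), which makes 10 of the 23366 gene symbols in the count table. All 10 passed the filter on low counts that left 15129 genes for testing.

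RNA of mouse salivary glands was sequenced in 7 libraries of 3 groups. The groups were submandibular gland at postnatal day 18 (P18, n = 2), parotid gland of adult mice aged 12 weeks (n = 3) and parotid gland at P18 (n = 2). Strain, sex, genotype and any treatment are not given in the labels, which also do not say whether the libraries of a group came from separate animals, so the p-values reflect the spread among these libraries alone, and that spread may be technical. The sample description names whole tissue, but the protocol for RNA extraction names epithelial cells isolated from the glands.

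A laminin molecule is a trimer of 1 alpha, 1 beta and 1 gamma chain. The alpha chain carries the sites through which cells bind the molecule by integrins and dystroglycan, and it differs most between tissues. Lamb1 and Lamc1 encode the most widely used beta and gamma chains, while the chains of Lama3 and Lamb3 belong to the laminin that anchors epithelial cells at hemidesmosomes. Nidogens bind the gamma chain of Lamc1 and type IV collagen, and so link the laminin and collagen networks. In salivary glands, basement membrane surrounds the acini and ducts with their myoepithelial cells, and also the vessels, nerves and fat cells between them.

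Total counts ranged between 13152194 and 15339757 in P18 submandibular gland, between 15972076 and 28856127 in adult parotid and between 12844534 and 14421876 in P18 parotid. The 10 most abundant genes took 42.1% and 44.0% of the counts in the P18 submandibular libraries, between 62.2% and 65.4% in adult parotid, and 17.8% and 9.05% in P18 parotid. Summed markers of parotid acinar cells lay at no more than 311 CPM (counts scaled to a common library total, with TMM factors that correct for a few abundant genes) in P18 submandibular gland, at least 534055 CPM in adult parotid and at least 20062 CPM in P18 parotid. Summed markers of the submandibular list lay at 257459 CPM or more in P18 submandibular gland, and at 217 and 61.4 CPM in P18 parotid. In adult parotid that sum lay between 13570 and 22275 CPM, of which Car6 made up between 13207 and 21588 CPM. Of its 5 genes, 2 were called higher in adult than in P18 parotid. Markers of vessels and fibroblasts were read in all 7 libraries, and those of skeletal muscle and fat mainly in the parotid libraries. P18 parotid replicate 2 stood apart from replicate 1, with summed epithelial markers of 231 against 589 CPM, summed endothelial markers of 926 against 449.8 CPM and summed adipocyte markers of 10085 against 2915 CPM. Adult parotid replicate 1 had 272 CPM of Xist and no count of 4 Y-linked genes, which were read in each of the other 6 libraries. It thus read as female and the others as male, so the adult group held more than 1 animal and mixed the sexes. Adult parotid replicate 2 had 24.1 CPM of Smgc and 218 CPM of Muc19, transcripts of the submandibular list, of which the other adult libraries had at most 0.0483 CPM. In P18 submandibular gland Smgc was at 176587 and 218753 CPM, but Muc19 was only at 8.05 and 3.74 CPM. The source of these transcripts in adult parotid replicate 2 was not tested. In bulk RNA of this kind, fewer cells of a type and less RNA per cell cannot be told apart.

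Within each library, levels of the members can be compared on the TPM scale, in which counts are divided by gene length and each library is set to 1 fixed total. Nid1 had the highest TPM of the 10 in all 7 libraries, at 46.1 and 49.1 TPM in P18 submandibular gland, 18.3, 14.0 and 15.5 TPM in adult parotid, and 132 and 163 TPM in P18 parotid. Lamb1 and Lamc1 lay close together in every library. Their levels were 33.3 and 33.7 TPM in P18 submandibular replicate 1, and 145 and 128 TPM in P18 parotid replicate 2. The ratio of Lamb1 to Lamc1 TPM was 0.989 and 1.07 in P18 submandibular gland, 1.03, 1.38 and 1.07 in adult parotid, and 0.968 and 1.14 in P18 parotid. Lama3 ranked 9th and Lama1 10th in all 7 libraries. Lama1, the alpha chain of the earliest embryonic basement membranes, was read by 26 and 14 counts in P18 submandibular gland, 28, 4 and 5 counts in adult parotid, and 12 and 29 counts in P18 parotid, so its groups overlapped in both comparisons and no difference was detectable at this depth.

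Promoter sequences show how unlike the starts of these genes are. RefSeq start regions of build GRCm38.p6, running from 250 bases before to 50 bases after the start, were matched for 5 of the 10 members, Lama2, Lama5, Lamb1, Lamb3 and Nid1. Those of Lamb1 and Nid1, which were lower in adult than in P18 parotid, and of Lamb3, which was higher in P18 submandibular gland than in P18 parotid, are printed on the coding strand, with GC boxes (GGGCGG or its complement CCGCCC) in capitals.
Lamb1, chr12:31265043-31265342, plus strand: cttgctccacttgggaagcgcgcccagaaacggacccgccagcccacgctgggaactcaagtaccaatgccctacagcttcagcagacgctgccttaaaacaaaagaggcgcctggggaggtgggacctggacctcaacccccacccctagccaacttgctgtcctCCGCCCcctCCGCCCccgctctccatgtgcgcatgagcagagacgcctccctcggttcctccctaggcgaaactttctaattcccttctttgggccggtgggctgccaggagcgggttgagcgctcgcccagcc
Nid1, chr13:13437352-13437651, plus strand: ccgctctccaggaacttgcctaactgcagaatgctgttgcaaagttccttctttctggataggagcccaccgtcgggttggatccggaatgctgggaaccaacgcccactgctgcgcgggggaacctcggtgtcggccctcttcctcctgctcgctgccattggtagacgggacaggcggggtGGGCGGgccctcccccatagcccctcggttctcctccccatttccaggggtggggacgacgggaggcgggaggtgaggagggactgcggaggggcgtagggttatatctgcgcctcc
Lamb3, first of 2 starts, chr1:193301744-193302043, plus strand: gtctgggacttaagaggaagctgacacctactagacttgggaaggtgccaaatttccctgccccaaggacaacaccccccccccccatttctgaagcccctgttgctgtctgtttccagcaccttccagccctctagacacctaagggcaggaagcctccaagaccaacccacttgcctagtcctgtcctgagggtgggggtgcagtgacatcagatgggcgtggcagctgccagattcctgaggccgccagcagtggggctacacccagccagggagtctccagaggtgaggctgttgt
The Lamb1 region held 2 GC boxes and 18 CpG pairs, and the Nid1 region 1 GC box and 20 CpG pairs. Of the regions not printed, that of Lama2, also lower in adult than in P18 parotid, held 1 GC box and 1 CpG pair. That of Lama5, a gene called in no comparison, held 4 GC boxes and 24 CpG pairs. The Lamb3 region held 0 GC boxes and 2 CpG pairs, against a median of 7 CpG pairs over all 32851 RefSeq start regions of this length. A GC box on either strand was present in 35.7% of those regions. The motif TATAAA, searched on both strands, was in none of the 5 members' regions and in 13.6% of all. These matches describe letters only and were not tied to any reading of the RNA.

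The first question set by the samples is how parotid at 12 weeks differs from parotid at P18. Of the 10 members, 6 fell in adult parotid and 0 rose (Lama2, Lama4, Lamb1, Lamc1, Nid1 and Nid2; edgeR quasi-likelihood test, Benjamini-Hochberg adjusted p up to 0.05 over all genes), where 25.9% of all genes tested passed in either direction and 15.1% passed as lower. The other 4 were Lama1, Lama3, Lama5 and Lamb3. For 8 of the 10, all 3 adult libraries lay below both P18 libraries in CPM, against 27.4% of all genes tested. The median log2 difference of the members was -1.34, against -0.01 for all genes tested.

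Among the alpha chains, Lama4 and Lama2 differed most between the ages. Lama4, the alpha chain known from the basement membranes of vascular endothelium and fat cells, had 41.8, 33.3 and 37.5 CPM in adult parotid, against 126 and 262 CPM in P18 parotid. The adult libraries were close to each other and far below both P18 libraries, which themselves differed 2.09-fold. The fitted difference was -2.37 ± 0.30 on the log2 scale (SE; edgeR adjusted p = 0.00376), a 5.17-fold lower level, and without P18 parotid replicate 2 it was 3.28-fold lower (edgeR adjusted p = 0.00218). Lama2, the alpha chain of muscle and nerve basement membranes, had 29.7, 33.9 and 41.1 CPM in adult parotid, against 151 and 160.4 CPM in P18 parotid. Both P18 libraries read alike for Lama2, and the adult level was 4.45-fold lower (log2 difference -2.16 ± 0.19 SE, edgeR adjusted p = 0.00143). Lama3, an alpha chain of epithelial basement membranes, had 8.52, 6.43 and 9.99 CPM in adult parotid, against 19.7 and 11.4 CPM in P18 parotid. These groups did not overlap, but the difference of -0.90 ± 0.29 (log2, SE) missed the threshold (edgeR adjusted p = 0.0556). Without P18 parotid replicate 2, the low one of the pair, it was -1.21, in a fit that leaves only the other library in that group. Over 18 alternative settings the Lama3 difference ran between -2.61 and -0.41. Lama5, the most widespread alpha chain of mature epithelial and vascular basement membranes, had 28.8, 35.1 and 37.5 CPM in adult parotid, against 62.3 and 45.2 CPM in P18 parotid, with a log2 difference of -0.67 ± 0.28 (SE) that did not pass (edgeR adjusted p = 0.113).

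**Figure D1:**
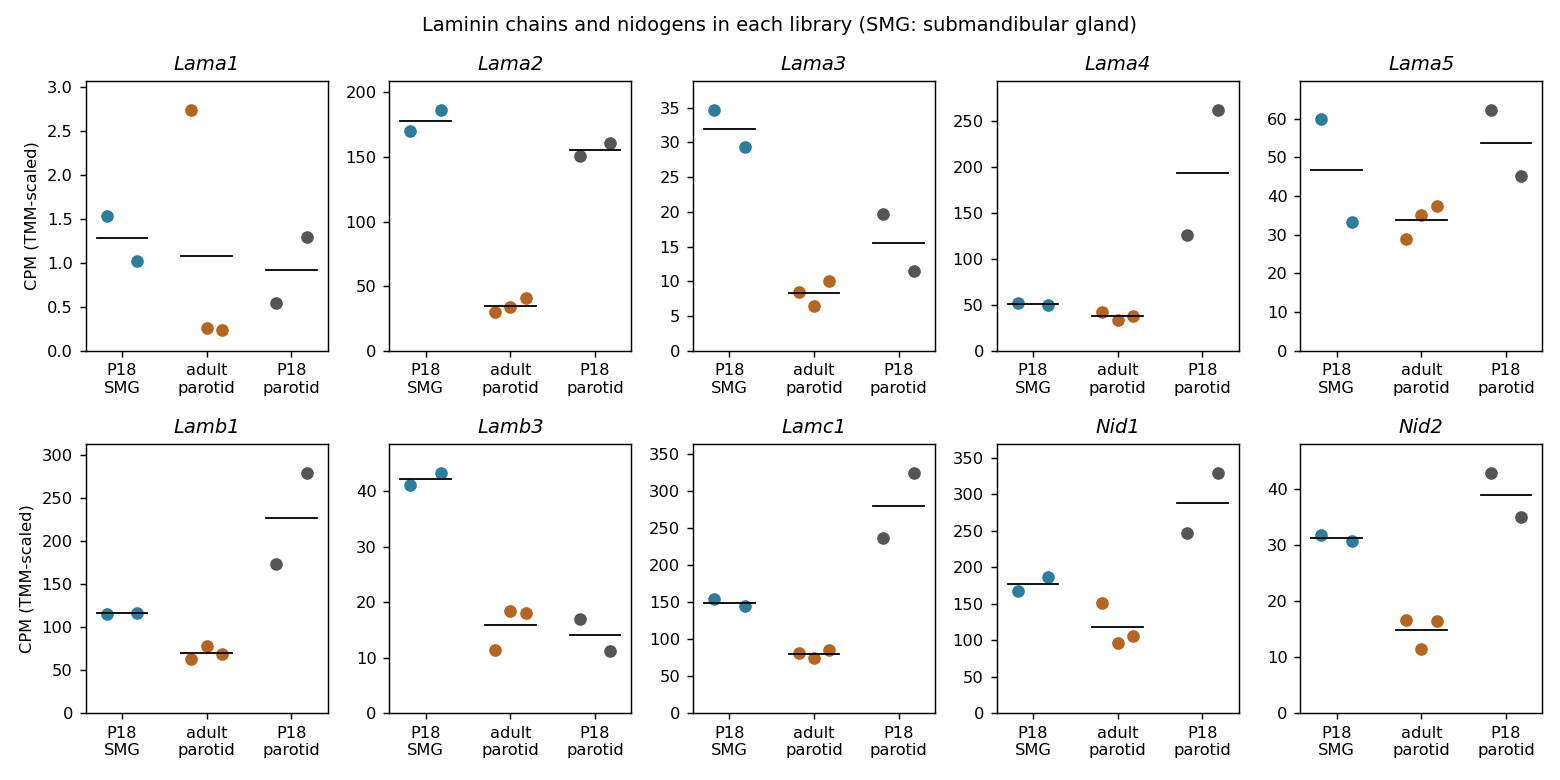
Level of each of the 10 members in each library, in CPM scaled by TMM on linear axes from 0, a panel per gene, with P18 submandibular gland left, adult parotid in the middle and P18 parotid right in each panel, 1 point per library and a bar at each group's mean. The adult points of Lama2, Lama4, Lamb1, Lamc1, Nid1 and Nid2 lie below both P18 parotid points, and both P18 submandibular points of Lamb3 lie above those of the other 2 groups.

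The common beta and gamma chains were lower in adult parotid too. Lamc1, the gamma chain shared by most laminin trimers, had 81.5, 75.1 and 85.3 CPM in adult parotid, against 236 and 325 CPM in P18 parotid, and fell 3.48-fold (log2 difference -1.80 ± 0.20 SE, edgeR adjusted p = 0.00248). Lamb1, its usual beta partner, had 63.6, 78.6 and 69.4 CPM in adult parotid, against 173 and 280.0 CPM in P18 parotid, and fell 3.21-fold (log2 difference -1.68 ± 0.24 SE, edgeR adjusted p = 0.00508). Both genes were thus well separated between the ages, and for both P18 parotid replicate 2 was the highest library. Lamb3, the beta chain of the epithelial anchoring laminin, behaved differently and overlapped between the ages, at 11.4, 18.4 and 18.1 CPM in adult parotid, against 17.0 and 11.2 CPM in P18 parotid. Its difference was 0.19 ± 0.27 on the log2 scale (SE; edgeR adjusted p = 0.635), and its sign turned where libraries were scaled by their plain totals (-1.05) or compared in log2(TPM + 1) (-1.46). The median of all genes was -1.24 with plain totals and -1.48 in log2(TPM + 1), and relative to it Lamb3 lay at 0.19 and 0.02.

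Both nidogens were lower in adult parotid. Nid1 had 151, 96.0 and 107 CPM in adult parotid, against 248 and 329.7 CPM in P18 parotid, a 2.45-fold lower level (log2 difference -1.29 ± 0.25 SE, edgeR adjusted p = 0.0131). Adult parotid replicate 1 was the highest of the 3, and the call was lost without adult replicate 2 (edgeR adjusted p = 0.0606) or adult replicate 3 (edgeR adjusted p = 0.0531). Nid2, a second nidogen with overlapping functions, had 16.6, 11.5 and 16.5 CPM in adult parotid, against 42.9 and 35.0 CPM in P18 parotid, and was 2.62-fold lower (log2 difference -1.39 ± 0.21 SE, edgeR adjusted p = 0.00627).

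Markers of several cell types moved beside the members between the ages. Summed endothelial markers lay between 305 and 376 CPM in adult parotid, against 449.8 and 926 CPM in P18 parotid, with 5 of 10 markers lower. All 5 pericyte markers were lower, with sums between 71.2 and 98.0 CPM in adult parotid, against 203 and 470.1 CPM in P18 parotid. Fibroblast markers summed to between 1942 and 2495 CPM in adult parotid, against 5770.1 and 8858 CPM in P18 parotid, with 4 of 7 lower, and epithelial markers summed to between 619 and 664 CPM in adult parotid, against 589 and 231 CPM in P18 parotid, with 1 of 8 higher. Skeletal muscle markers overlapped between the ages (599 to 5288 CPM in adult parotid, against 1299 and 6397 CPM in P18 parotid; 0 of 9 passed), and of 9 adipocyte markers 2 were lower (2538 to 3051 CPM in adult parotid, against 2915 and 10085 CPM in P18 parotid). Of 9 basal and myoepithelial markers 4 were higher and 1 lower, although their sums were close (243 to 259 CPM in adult parotid, against 266 and 262 CPM in P18 parotid), and 2 of 5 leukocyte markers were higher. Schwann cell markers were lower for 3 of 7 (84.8 to 117 CPM in adult parotid, against 183 and 198 CPM in P18 parotid). The part of these cell types in the members' differences was not tested. Set against the summed markers of a cell type, Lama4 stood at 11.1%, 10.8% and 12.3% of the endothelial sum in adult parotid, against 27.9% and 28.3% in P18 parotid, where the 2 libraries read nearly alike. Lama2 stood at 1.19%, 1.75% and 1.95% of the fibroblast sum in adult parotid, against 2.61% and 1.81% in P18 parotid, so its groups overlapped on that scale. Lamc1 overlapped as well, at 3.26%, 3.87% and 4.04% of the fibroblast sum in adult parotid, against 4.10% and 3.67% in P18 parotid, and Nid1 was higher there (6.06%, 4.94% and 5.04% in adult parotid, against 4.29% and 3.72% in P18 parotid). That sum is mostly collagen, with Col3a1 at 3397 of 5770.1 CPM in P18 parotid replicate 1. Relative to the endothelial sum, Lamc1 was lower without overlap, at 21.7%, 24.4% and 27.9% in adult parotid, against 52.5% and 35.1% in P18 parotid. Nid1 overlapped on the endothelial scale, at 40.2%, 31.1% and 34.9% in adult parotid, against 55.1% and 35.6% in P18 parotid. These pairs of member and marker list, and those used below between the glands, were chosen with the values known. The percentages are given as a description.

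**Figure D2:**
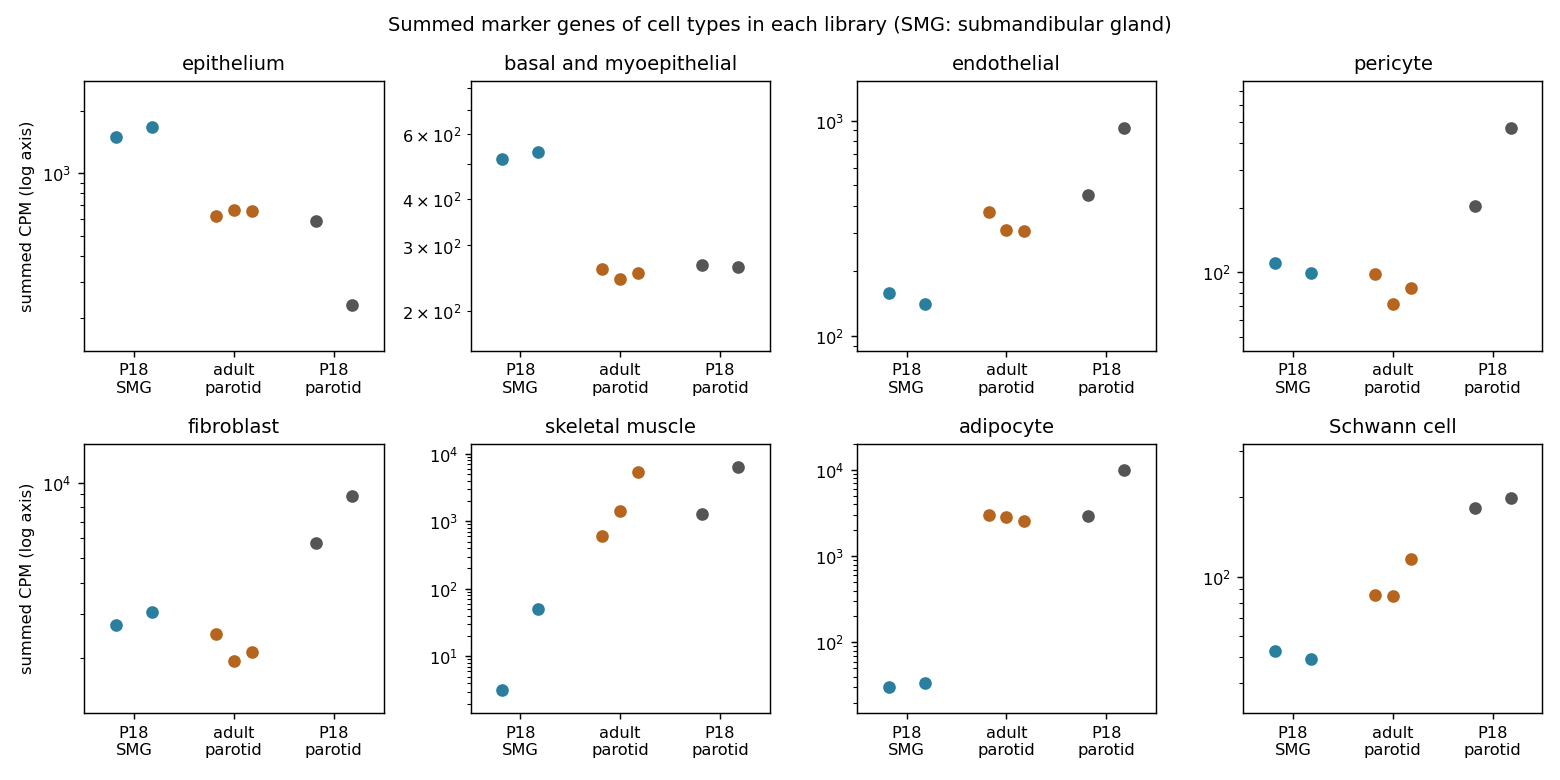
Summed CPM of the marker lists of the cell types in each library, on a log axis, with P18 submandibular gland left, adult parotid in the middle and P18 parotid right, 1 point per library. Endothelial sums run between 140.4 and 157 CPM in P18 submandibular gland, between 305 and 376 CPM in adult parotid and between 449.8 and 926 CPM in P18 parotid.

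The second question is how the 2 glands differ at P18. Of the 10 members, 1 rose in P18 submandibular gland (Lamb3) and 3 fell (Lama4, Lamb1 and Lamc1), where 24.4% of all genes tested passed in either direction, 10.2% as higher and 14.2% as lower. With so many genes called, nothing is read from the count alone. Both P18 submandibular libraries lay above both P18 parotid libraries for 3 members (31.7% of all genes tested) and below them for 5 (33.2% of all genes tested). The median log2 difference of the members was -0.26, against -0.07 for all genes tested. With either P18 submandibular library left out, which leaves that group with 1 library assumed to vary like the other groups, 0 of the 10 passed the edgeR test; at an unadjusted p up to 0.05 there were 4 without replicate 1 and 5 without replicate 2. Few of all genes passed the edgeR test in those fits, so nothing is read from the 0 members. On all libraries DESeq2 called 5 members, where it called 28% of all genes tested. On the same libraries limma on log2(TPM + 1) called 7, where it called 64.1% of all genes tested, so nothing is read from these counts either. This comparison and the one between ages share the P18 parotid libraries.

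Lamb3 was the member that rose, at 41.1 and 43.4 CPM in P18 submandibular gland, against 17.0 and 11.2 CPM in P18 parotid. The level was 3.0-fold higher (log2 difference 1.59 ± 0.30 SE, edgeR adjusted p = 0.0126), and scaling by plain totals kept the direction but not the call (log2 difference 0.96, edgeR adjusted p = 0.0633). Lama3, its alpha partner, lay the same way round at 34.7 and 29.3 CPM in P18 submandibular gland, against 19.7 and 11.4 CPM in P18 parotid. That difference of 1.04 ± 0.32 (log2, SE) missed the threshold (edgeR adjusted p = 0.0513). Its size depended on the P18 parotid library used, at 1.53 without replicate 1 and 0.71 without replicate 2 (log2). Each of these fits leaves only the other library in that group. Epithelial markers stood higher beside these chains, with 7 of 8 called higher and sums of 1492 and 1679 CPM in P18 submandibular gland, against 589 and 231 CPM in P18 parotid. Basal and myoepithelial markers were called higher for 7 of 9, with sums of 515 and 536 CPM in P18 submandibular gland, against 266 and 262 CPM in P18 parotid. As a share of the epithelial sum, Lamb3 was lower in P18 submandibular gland (2.76% and 2.58%, against 2.88% and 4.83% in P18 parotid), and so was Lama3 (2.32% and 1.75%, against 3.35% and 4.95% in P18 parotid). As a share of the basal and myoepithelial sum, Lamb3 was higher in P18 submandibular gland (7.99% and 8.09%, against 6.39% and 4.26% in P18 parotid), and Lama3 overlapped (6.74% and 5.47%, against 7.43% and 4.36% in P18 parotid). The direction for Lamb3 thus turned with the marker list it was set against, and the part of epithelial content in its difference was not tested.

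Lama4 fell in P18 submandibular gland, at 52.1 and 49.5 CPM, against 126 and 262 CPM in P18 parotid. The level was 3.82-fold lower (log2 difference -1.93 ± 0.34 SE, edgeR adjusted p = 0.00998), and 2.44-fold lower without P18 parotid replicate 2 (edgeR adjusted p = 0.00451). Of the 10 endothelial markers 9 were lower beside it, with sums of 157 and 140.4 CPM in P18 submandibular gland, against 449.8 and 926 CPM in P18 parotid, and all 9 adipocyte markers were lower, with sums of 30.1 and 33.7 CPM, against 2915 and 10085 CPM in P18 parotid. No endothelial marker was at 0 counts in any library, whereas Lep was at 0 counts in both P18 submandibular libraries. Relative to the endothelial sum, Lama4 was higher without overlap in P18 submandibular gland, at 33.1% and 35.3%, against 27.9% and 28.3% in P18 parotid. The part of these cell types in the difference was not tested.

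Lamb1 and Lamc1 fell by less. Lamb1 had 115 and 117 CPM in P18 submandibular gland, against 173 and 280.0 CPM in P18 parotid (log2 difference -0.96 ± 0.26 SE, edgeR adjusted p = 0.0370), and its call was lost without P18 parotid replicate 2 (log2 difference -0.56, edgeR adjusted p = 0.0722). Lamc1 had 154 and 145 CPM in P18 submandibular gland, against 236 and 325 CPM in P18 parotid (log2 difference -0.91 ± 0.22 SE, edgeR adjusted p = 0.0266). Both calls were also lost without adult parotid replicate 2 or replicate 3, which enter through the shared estimate of the spread (edgeR adjusted p between 0.0550 and 0.0705). Fibroblast markers were lower for 3 of 7, with sums of 2707 and 3063 CPM in P18 submandibular gland, against 5770.1 and 8858 CPM in P18 parotid, and 4 of 5 pericyte and 4 of 7 Schwann cell markers were lower. Relative to the fibroblast sum Lamc1 stood higher, at 5.69% and 4.73% in P18 submandibular gland, against 4.10% and 3.67% in P18 parotid.

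The remaining members did not pass between the glands at P18. Lama2 had 170.0 and 186 CPM in P18 submandibular gland, against 151 and 160.4 CPM in P18 parotid (log2 difference 0.19 ± 0.21 SE, edgeR adjusted p = 0.537). Its sign turned with plain totals, at -0.41, where the median of all genes was -0.67, and in log2(TPM + 1), at -0.72, where that median was -0.79. Lama5 ranged as widely within the glands as between them, at 60.0 and 33.2 CPM in P18 submandibular gland, against 62.3 and 45.2 CPM in P18 parotid (edgeR adjusted p = 0.666). Nid1 had 167 and 187 CPM in P18 submandibular gland, against 248 and 329.7 CPM in P18 parotid (log2 difference -0.71 ± 0.28 SE, edgeR adjusted p = 0.113). Nid2 differed little, at 31.9 and 30.8 CPM in P18 submandibular gland, against 42.9 and 35.0 CPM in P18 parotid (log2 difference -0.31 ± 0.23 SE, edgeR adjusted p = 0.360). Neither nidogen overlapped between the glands, but the spread between the P18 parotid libraries was large beside the differences.

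**Figure D3:**
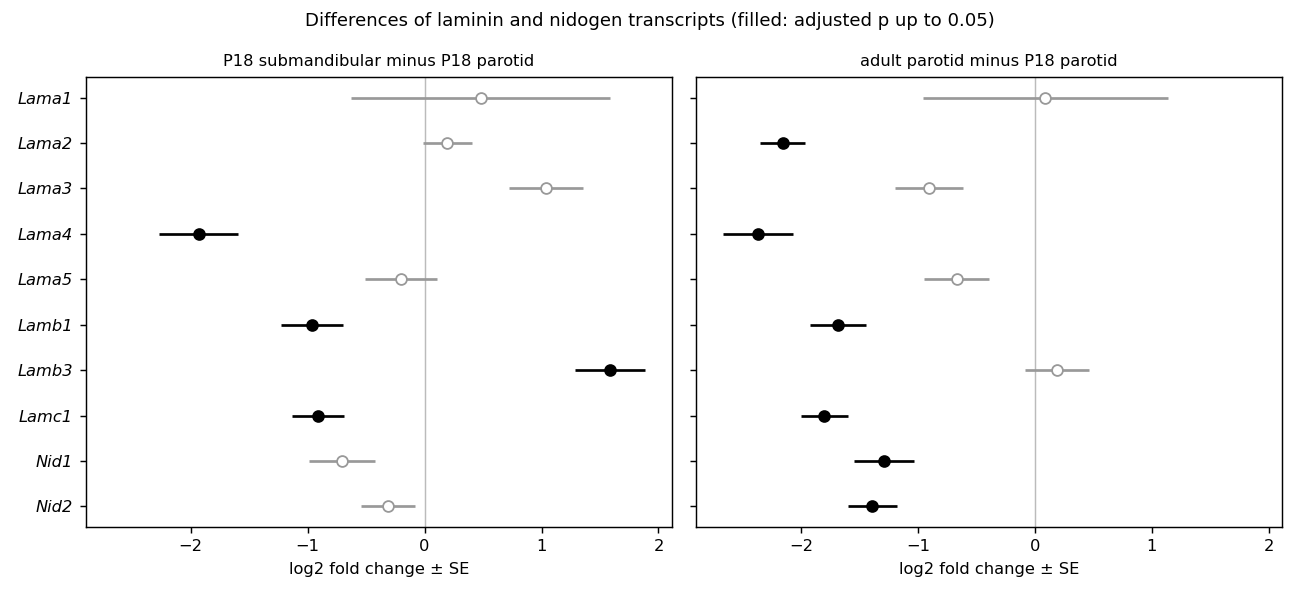
Fitted log2 differences of the 10 members with bars of 1 SE, P18 submandibular gland minus P18 parotid and adult parotid minus P18 parotid, with filled points for an edgeR adjusted p up to 0.05. In the comparison of ages 6 points are filled, all below 0, and in the comparison of glands 4 are filled, with Lamb3 above 0 and Lama4, Lamb1 and Lamc1 below.

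Without the 2 libraries that stand apart, P18 parotid replicate 2 and adult parotid replicate 1, which leaves the P18 parotid group with 1 library, 7 members fell in adult parotid (Lama3 in addition to the 6), where 41.7% of all genes tested passed in that fit. In P18 submandibular gland 6 members were then called, where 40.0% of all genes tested passed, with Lama3 and Lamb3 higher and Lama4, Lamb1, Lamc1 and Nid1 lower.

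The order of the 3 groups differed between members. In the third pairing, in which gland and age both differ, 6 members were higher in P18 submandibular gland than in adult parotid and 0 lower (Lama2, Lama3, Lamb1, Lamb3, Lamc1 and Nid2), where 39.2% of all genes tested passed in either direction and 19.4% as higher. Lamb1 averaged 116 ± 1.35 CPM in P18 submandibular gland (SD, n = 2), 70.5 ± 7.60 CPM in adult parotid (SD, n = 3) and 227 ± 75.4 CPM in P18 parotid (SD, n = 2), and each neighbouring pair differed (edgeR adjusted p = 0.0459 for P18 submandibular gland against adult parotid). Lamc1 had the same order, with P18 parotid highest and adult parotid lowest, and each neighbouring pair differed (edgeR adjusted p = 0.0126 for P18 submandibular gland against adult parotid). For Lama4 and Nid1 P18 parotid was highest, but the 2 lower groups did not pass against each other (edgeR adjusted p = 0.284 for Lama4 and 0.107 for Nid1). Nid1 in P18 submandibular gland, the middle group, passed against neither neighbour. For Nid2 the 2 groups at P18 were the neighbours that did not pass, and adult parotid was below both. Lama2 and Lama3 were highest in P18 submandibular gland and lowest in adult parotid. The difference between those ends was 5.10-fold for Lama2 and 3.84-fold for Lama3 (edgeR adjusted p = 0.000551 and 0.00298). For Lama3 neither neighbouring pair passed. Lamb3 was highest in P18 submandibular gland, 2.64-fold above adult parotid (edgeR adjusted p = 0.0069), with the parotid groups not passing against each other. Lama5 passed in no pairing. In the pairing of P18 submandibular gland with adult parotid, the call of Lamb1 was lost without any 1 of the P18 submandibular or adult libraries (edgeR adjusted p between 0.0873 and 0.197), that of Lamc1 without either P18 submandibular library or adult replicate 2 (0.0585 to 0.0947), that of Nid2 without either P18 submandibular library (0.0538 and 0.0619) and that of Lamb3 without P18 submandibular replicate 2 (0.0548). Calls appeared for Lama4 without either P18 parotid library (edgeR adjusted p = 0.0381 and 0.0383), and for Lama1 and Nid1 without adult replicate 1 (edgeR adjusted p = 0.0320 and 0.0383).

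The make-up of the alpha chains, as shares of their summed TPM, also varied with gland and age. Lama2 made up 50.1% and 57.7% of the alpha chain sum in P18 submandibular gland, 22.4%, 27.4% and 28.8% in adult parotid, and 35.5% and 25.4% in P18 parotid. It was the leading alpha chain by TPM in both P18 submandibular libraries, whereas Lama4 led by TPM in all 5 parotid libraries. Lama4 made up 24.7% and 24.6% in P18 submandibular gland, 50.8%, 43.3% and 42.1% in adult parotid, and 47.5% and 66.6% in P18 parotid. Lama5 made up 15.1% and 8.78% in P18 submandibular gland, 18.6%, 24.2% and 22.3% in adult parotid, and 12.5% and 6.09% in P18 parotid, so the adult share lay above that of both P18 parotid libraries although the CPM of Lama5 did not differ past the threshold. Lama3 made up 9.61% and 8.52% in P18 submandibular gland, 6.05%, 4.88% and 6.56% in adult parotid, and 4.36% and 1.70% in P18 parotid. Lama1 stayed at or below 0.463% in the 6 libraries other than adult parotid replicate 1, which had 2.12%. The ratio of Lama4 to Lama2 TPM was 0.492 and 0.427 in P18 submandibular gland, 2.26, 1.58 and 1.46 in adult parotid, and 1.34 and 2.62 in P18 parotid, without overlap between the glands. By CPM, not divided by gene length, Lama2 still led in both P18 submandibular libraries, but the lead of Lama4 did not hold throughout parotid. Lama2 then led in P18 parotid replicate 1 (42.0%, against 35.0% for Lama4) and adult parotid replicate 3 (32.6% against 29.7%). Lama5 led in adult parotid replicate 2 (32.2%, against 30.6% for Lama4). An exact two-sided permutation test of any such share cannot go below p = 0.333 with 2 libraries against 2, or 0.2 with 3 against 2, so these shares carry no test.

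**Figure D4:**
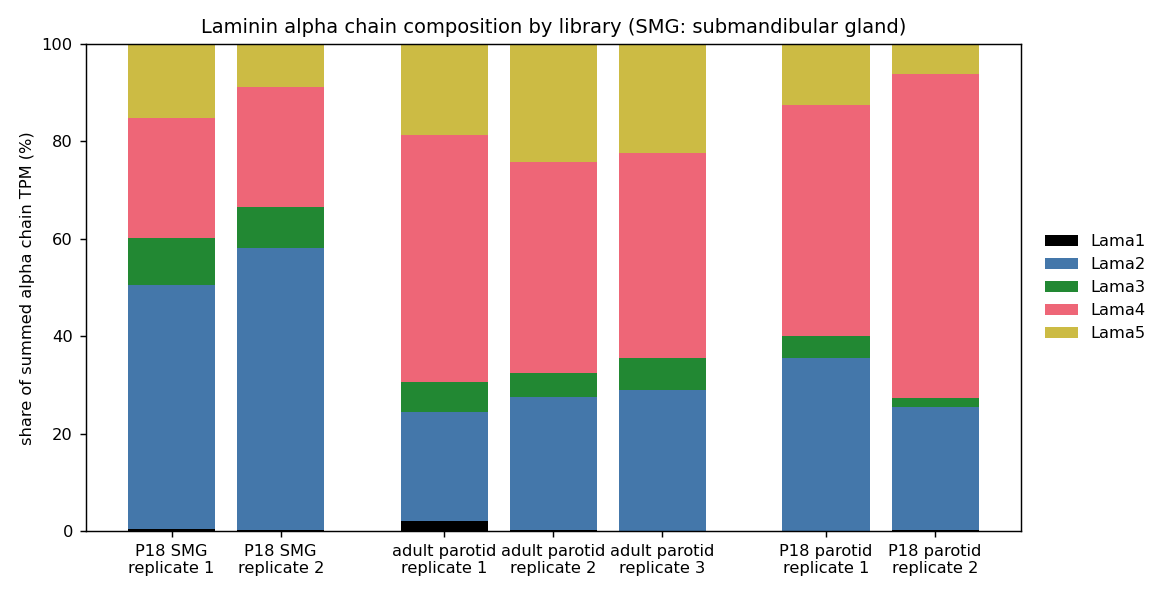
Share of each alpha chain gene in the summed TPM of Lama1, Lama2, Lama3, Lama4 and Lama5, in percent, stacked per library from 0, with P18 submandibular libraries left, adult parotid in the middle and P18 parotid right. Lama2 takes 50.1% and 57.7% in the P18 submandibular libraries and between 22.4% and 35.5% in the parotid libraries.

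The balance of the beta chains differed as well. Lamb3 made up 33.7% and 34.5% of the summed TPM of Lamb1 and Lamb3 in P18 submandibular gland, 20.3%, 25.0% and 27.0% in adult parotid, and 12.2% and 5.37% in P18 parotid, so the 3 groups did not overlap. The balance of nidogens varied less. Nid2 made up 19.1% and 16.9% of the summed nidogen TPM in P18 submandibular gland, 12.0%, 12.9% and 16.0% in adult parotid, and 17.7% and 11.6% in P18 parotid. Nid1 exceeded Lamc1, the chain it binds, in TPM in all 7 libraries, 1.37 and 1.62 times in P18 submandibular gland, 2.34, 1.61 and 1.57 times in adult parotid, and 1.32 and 1.28 times in P18 parotid. The summed alpha chains stood at 1.73 and 1.75 times Lamc1 in P18 submandibular gland, 1.27, 1.29 and 1.31 times in adult parotid, and 1.41 and 1.53 times in P18 parotid, again without overlap between the 3 groups. In CPM, which are not divided by gene length, this ratio overlapped between the ages. It was 1.369, 1.450 and 1.480 in adult parotid, against 1.520 and 1.477 in P18 parotid.

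The 2 P18 parotid libraries split the members into chains that were higher and chains that were lower in replicate 2. Replicate 2 exceeded replicate 1 for Lama4 by 1.06, for Lamb1 by 0.69, for Lamc1 by 0.46 and for Nid1 by 0.41 on the log2 scale, and for Lama1 by 1.25 on few counts. Lama2 was nearly level at 0.09. Replicate 2 lay below replicate 1 for Nid2 (-0.30), Lama5 (-0.46), Lamb3 (-0.61) and Lama3 (-0.79). Between the same libraries the median log2 difference was 1.19 for endothelial, 1.21 for pericyte, 1.71 for adipocyte, -1.27 for epithelial and -0.33 for basal and myoepithelial markers. In P18 submandibular gland Lama5 differed most on appreciable counts, with replicate 2 at -0.85 against replicate 1, and the 8 members other than Lama1 and Lama5 lay between -0.24 and 0.16.

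**Figure D5:**
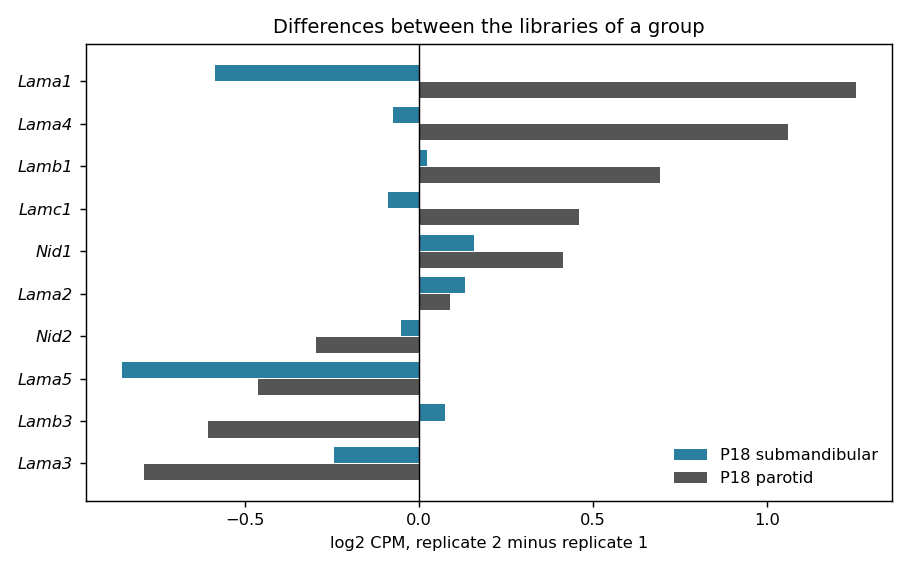
Log2 difference in CPM between replicate 2 and replicate 1 for each member, in P18 submandibular gland and in P18 parotid. In P18 parotid Lama4 lies at 1.06 and Lama3 at -0.79, and in P18 submandibular gland Lama5 lies at -0.85.

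Other genes of the basement membrane were read from lists of pathway members. Lamb2, a beta chain of vessel, muscle and nerve basement membranes, was lower in adult parotid (49.8 ± 10.6 CPM, n = 3, against 95.3 ± 37.1 CPM in P18 parotid, n = 2, SD; edgeR adjusted p = 0.0454). Among 24 further components of the basement membrane, 12 fell and 0 rose in adult parotid, where 15.1% of all genes tested passed as lower, with a median log2 difference of -1.01. The 3 with the smallest adjusted p were Hmcn1 (hemicentin), Col4a5 (a type IV collagen chain) and Fras1, of the complex that ties epithelium to the underlying matrix in the embryo. Hmcn1 averaged 3.45 ± 0.194 CPM in adult parotid (n = 3), against 18.4 ± 3.04 CPM in P18 parotid (n = 2, SD), 5.29-fold lower (edgeR adjusted p = 0.00133). Col4a5 averaged 9.81 ± 1.27 CPM in adult parotid, against 39.8 ± 3.40 CPM in P18 parotid, and Fras1 fell to 0.284 ± 0.171 CPM in adult parotid, against 3.81 ± 0.507 CPM in P18 parotid. Fras1 was read by only 1, 5 and 9 counts in the adult libraries. The main collagen IV chains were also among the 12, with log2 differences of -1.85 ± 0.27 for Col4a1 and -1.79 ± 0.27 for Col4a2 (SE), as was the heparan sulfate proteoglycan perlecan, Hspg2, at -1.90 ± 0.29 (SE).

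Between the glands at P18 the same list held 1 gene that rose, Col4a5, and 4 that fell, with a median log2 difference of -0.22, against 24.4% of all genes called, so nothing is read from the count. Col4a5 averaged 76.2 ± 6.06 CPM in P18 submandibular gland, against 39.8 ± 3.40 CPM in P18 parotid (SD, n = 2 each; edgeR adjusted p = 0.0156). The 4 that fell were Smoc1, Npnt (nephronectin, an integrin ligand), Sparc (a collagen-binding matrix protein) and Hspg2. Smoc1 averaged 2.54 ± 0.174 CPM in P18 submandibular gland, against 9.72 ± 3.93 CPM in P18 parotid (SD, n = 2 each; edgeR adjusted p = 0.0115). Npnt, at 0.354 ± 0.0858 CPM in P18 submandibular gland against 1.60 ± 0.336 CPM in P18 parotid (SD, n = 2 each), rested on few counts.

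Of 15 laminin receptor genes, 4 fell and 0 rose in adult parotid, with a median log2 difference of -0.50. In P18 submandibular gland 1 rose (Itga6) and 3 fell, with a median of -0.63. These counts were close to the 25.9% and 24.4% of all genes called between the ages and between the glands, so nothing is read from them. Itga6, the integrin alpha chain of hemidesmosomes and other laminin receptors, averaged 239 ± 13.2 CPM in P18 submandibular gland (n = 2), 40.2 ± 5.88 CPM in adult parotid (n = 3) and 134 ± 11.6 CPM in P18 parotid (n = 2, SD). It was 1.78-fold higher in P18 submandibular gland than in P18 parotid (edgeR adjusted p = 0.0302) and 3.33-fold lower in adult than in P18 parotid (edgeR adjusted p = 0.00247). Itga1, an integrin chain that binds collagen IV and laminin, was 5.53-fold lower in adult parotid (edgeR adjusted p = 0.00242). Itga7, the laminin-binding integrin chain of muscle, was 10.9-fold lower in P18 submandibular gland than in P18 parotid, and the sarcoglycan Sgcd was also lower there. Beside these genes, 8 of 9 skeletal muscle markers were lower, with sums of 3.14 and 50.8 CPM in P18 submandibular gland, against 1299 and 6397 CPM in P18 parotid, and the part of muscle in them was not tested. Sgcd was also lower in adult parotid, and so was Itga2, a collagen-binding integrin chain read there by only 14, 9 and 19 counts.

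Of 12 tested genes that add the laminin-binding sugars to dystroglycan, 1 rose and 1 fell in P18 submandibular gland, and 2 rose and 1 fell in adult parotid. Of all genes tested 24.4% and 25.9% passed in these comparisons, so nothing is read from those numbers. In P18 submandibular gland Pomgnt1 rose (log2 difference 1.16 ± 0.24 SE) and Large fell (-0.94 ± 0.23), and in adult parotid Gtdc2 rose (1.03 ± 0.20). Of 14 tested matrix proteases and inhibitors, 2 fell in P18 submandibular gland, the cathepsin Ctsb (log2 difference -1.62 ± 0.38 SE) and the gelatinase Mmp9 (-2.05 ± 0.51). Mmp9 was read there by only 4 and 9 counts. In adult parotid 2 rose, the metalloproteinase inhibitor Timp2 (log2 difference 0.99 ± 0.16 SE) and Mmp9 (2.28 ± 0.41), and 0 fell. Of all genes tested 14.2% passed as lower between the glands and 10.7% as higher between the ages. The numbers of proteases and inhibitors called were near these shares, so nothing is read from them. Leukocyte markers moved the same way as Mmp9. All 5 were lower in P18 submandibular gland, with sums of 44.9 and 43.3 CPM, against 291 and 186 CPM in P18 parotid, and 2 of 5 were higher in adult parotid, with sums between 509 and 1036 CPM. Their part in the Mmp9 and Ctsb differences was not tested.

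Genes whose profiles over the 7 libraries lay nearest to each member were found among 10844 genes with a mean of at least 5 CPM, by the root mean square difference of log2 CPM after centring each gene on its mean. For Lamc1 the 3 nearest were Sptbn1, Col4a1 and C030046E11Rik, at 0.0760, 0.106 and 0.112. For Nid1 they were Col6a1, Heph and Prkd3, the first at 0.0764, and for Lamb1 Ptprg, Mpdz and Svep1, the first at 0.109. Lama4 lay nearest to Lox, Fzd4 and Cd93, the first at 0.117, and Lama3 nearest to Col4a6, Znrf3 and Nbas, the first at 0.126. Among the members Lamb1 and Lamc1 were the closest pair, at 0.159. Lamc1 was the 11th nearest gene to Lamb1, and Lamb1 the 15th nearest to Lamc1. Lama3 and Lamb3, chains of 1 trimer, were at 0.533 from each other, with Lama3 at rank 1170 from Lamb3. Lamb3 lay nearest to Ddx26b, Mgat3 and Tbc1d8b (0.0932 for the first), Nid2 to Rttn, Nek1 and Ncor1 (0.0970), Lama5 to Notch1, Rcor1 and Arid1b (0.141), and Lama2 to Rest, Ube3a and Ccnt1 (0.160). The profile of Lama1, on few counts, lay no nearer than 0.489 to any gene, with Ptn, Clec14a and Fabp5 the nearest. These distances describe 7 libraries that share 3 groups.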

How the data were processed

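The authors deposited raw read counts in 1 table with gene symbols as rows, and values in TPM (counts divided by gene length, then scaled to 1 total per library) in another. Per the labels, polyadenylated RNA was made into libraries with an Illumina TruSeq kit. Build mm9 and the tools DESeq2 1.20.0, featureCounts 1.5.1, Bowtie2 2.2.6 and TopHat2 2.1.1 are named in the submitters' processing notes. The sources used here give neither the role of each tool nor the handling of strand and of multi-mapped reads. In the count table, 2 columns of per-sample values matched no label and were not used.

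From the deposited counts, CPM were computed with TMM factors in edgeR 4.0.16 (R 4.3.3). Genes were kept by filterByExpr (minimum count 10, minimum total 15), and the quasi-likelihood F test was run on all 15129 genes kept, with the 7 libraries of 3 groups in 1 fit that left 4 residual degrees of freedom. Log2 differences are given with standard errors from the F statistic, and p-values were Benjamini-Hochberg adjusted over all genes tested, with a threshold of 0.05. The deposited TPM were used for levels between genes and for shares within a library. Alternatives were tried with DESeq2 1.42.0, with limma 3.58.1 on log2(TPM + 1), and with other scalings, filters and sets of libraries. The fit was also run on simulated counts. All members were named, as were the 3 nearest genes of each and, per pathway list, up to 3 genes a direction by ascending adjusted p. Hspg2, Col4a1, Col4a2 and Itga2 were named in addition, after their values were seen. The members and the lists were chosen with earlier results of these data known. Some results for genes of the pathway lists are not reported here. Replicates differed by more than sampling noise, so none was counted as a duplicate.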

Additional observations from a re-analysis of the deposited data

How the results depend on the processing

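Over 18 alternative settings, the number of members called in adult against P18 parotid ran between 5 and 9 (6 as reported), all of them lower, and Lama2, Lama4, Lamb1, Lamc1 and Nid2 were called in each of the 18. Leaving out 1 library at a time gave between 5 and 7. For P18 submandibular gland against P18 parotid, 4 members were called as reported, 1 with only the 2 groups compared, and 7, all lower, with limma on log2(TPM + 1), on log2(TPM + 0.1) or without a filter; leaving out 1 library gave between 0 and 5. For P18 submandibular gland against adult parotid, leaving out 1 library gave between 2 and 7 (6 as reported). The cause was not tested, except that fewer libraries enter a fit that leaves some out. Scaling by plain library totals moved the median log2 difference of all genes by -0.61 between the glands and by -1.23 between the ages, and log2(TPM + 1) moved it by -0.72 and -1.47. Of all called genes, 41.7% were higher between the glands as reported and 8.71% with plain totals, and 41.5% and 1.52% between the ages. Plain totals called 5 members between the glands, all lower, where 39.4% of all genes passed, and 9 between the ages, all lower, where 72.4% passed. The limma settings, with 7 members between the glands, called between 50.5% and 64.1% of all genes there. Relative to the median of all genes under the same setting, the members' median was -0.20 with plain totals, against -0.19 as reported, between the glands, and -1.35 against -1.33 between the ages. The sign of Lama2 between the glands turned with plain totals (-0.41), in log2(TPM + 1), with or without a filter (-0.72), and in log2(TPM + 0.1) (-0.74). The sign of Lamb3 between the ages turned with plain totals (-1.05), in log2(TPM + 1), with or without a filter (-1.46), and in log2(TPM + 0.1) (-1.70). Over all genes, the number called ran between 148 and 9941 between the glands (3686 as reported) and between 1306 and 14170 between the ages (3915 as reported). Whether replicate numbers pair the samples could not be decided. Deviations of libraries with the same number correlated at 0.239 between the glands at P18 and at 0.0844 and 0.0104 between the ages. With 2 libraries a group the deviations mirror each other, so libraries of the glands with different numbers had to give -0.239. With the replicate block, 3 members were called between the glands (Lama3, Lama4 and Lamb3), 5 between the ages and 4 in the third pairing. Leaving out P18 parotid replicate 2 and adult parotid replicate 1 together was chosen after seeing the data. With 2 or 3 libraries a group small differences could not be resolved, and Lama1 rested on 4 to 29 counts a library.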
